A study of Mus musculus with 24 samples.

Results

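A set of 10 genes of the canonical Wnt pathway was chosen by symbol: the TCF/LEF transcription factor genes Lef1, Tcf7, Tcf7l1 and Tcf7l2, and the target genes Axin2, Notum, Dkk1, Znrf3, Rnf43 and Ccnd1. Of these 10 genes, 9 had a probe set annotated to that gene alone, among 19938 genes measured in all. Each of the 9 had exactly 1 such set, and none of those sets was shared with another gene. Tcf7 had no set of its own and was not analysed here. The rule that picks their probe sets uses no difference between groups. The genes themselves were chosen with earlier results of these data known, so their counts beside those of all genes are descriptions.

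All cells were of D3, an established mouse embryonic stem cell line. siPRMT1 cells had a knockdown of Prmt1, which encodes an arginine methyltransferase, and siSCR cells carried a scrambled control sequence; the sources used here do not say whether the knockdown was stable or whether either line was 1 clone. Affymetrix whole-transcript arrays measured the total RNA of both lines in 4 states: undifferentiated cells, day 4 embryoid bodies aggregated without the cytokine LIF, embryoid bodies given the vehicle DMSO for 12 h, and embryoid bodies given all-trans retinoic acid (ATRA, 5 micromol) for 12 h. The treated embryoid bodies are listed at day 4 as well, but the labels do not give their exact age. There were 3 arrays in each of the 8 groups, which the labels call biological replicates. All cells had been passaged on gelatin to remove feeder cells. Values are on a log2 scale, so a difference of 1 is a doubling of signal, and the values of different genes are not compared with each other because each probe set has its own sensitivity. A gene was called higher or lower where the limma p-value, adjusted over all 19938 genes, was under 0.05.

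Wnt proteins bind Frizzled receptors with the co-receptors LRP5 and LRP6 and stop the destruction complex from degrading beta-catenin, which then enters the nucleus and acts through TCF/LEF proteins bound to DNA. In mouse embryonic stem cells TCF7L1 acts mainly as a repressor of pluripotency genes, and LEF1 mainly as an activator. Many genes switched on by the pathway restrain it in turn: AXIN2 is a scaffold of the destruction complex, NOTUM removes the lipid that Wnt proteins need, DKK1 blocks the co-receptors, and ZNRF3 and RNF43 remove Frizzled receptors from the cell surface. In the embryo Wnt signals pattern the epiblast and the primitive streak.

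TCF/LEF proteins recognise DNA related to the letters CTTTG followed by AA, by AT, by TA or by TT, so promoter windows were searched for these 4 spellings on both strands, counting overlapping matches separately. RefSeq windows on build GRCm38.p6, each from 250 bases before to 50 bases after a transcript start, were available for 7 of the 10 genes, with 13 windows in all. At least 1 spelling stood in 3 of the 13 windows, belonging to 3 genes, against 16.9% of the 32851 windows of all genes. Dkk1 had 2 matches in its window, as 1.94% of all windows had 2 or more. The 3 windows with a match are printed to show where the letters lie, and the Lef1 window of its first start because Lef1 had the widest range of group means among the 9 genes; capitals mark the match, which is a description of letters and not a binding site. The Dkk1 window lies at chr19:30549447-30549746 on the minus strand, with CTTTGAA beginning at -117 from the start and a further match, CTTTGTT, at -98. The Tcf7l2 window numbered 2 lies at chr19:55895071-55895370 on the plus strand, with CTTTGTT beginning at -14. The Lef1 window numbered 4 by its transcript start lies at chr3:131156044-131156343 on the plus strand, with TACAAAG, which reads CTTTGTA on the other strand, beginning at -147. The Lef1 window numbered 1 lies at chr3:131110047-131110346 on the plus strand and has none of the 4 spellings. Notum, Znrf3 and Ccnd1 are named only.
Dkk1: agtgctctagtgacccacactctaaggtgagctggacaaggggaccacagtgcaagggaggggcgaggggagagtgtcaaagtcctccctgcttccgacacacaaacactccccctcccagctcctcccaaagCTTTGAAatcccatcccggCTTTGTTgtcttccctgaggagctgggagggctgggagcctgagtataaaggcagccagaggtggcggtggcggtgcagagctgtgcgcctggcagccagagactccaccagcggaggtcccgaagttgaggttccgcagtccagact
Tcf7l2, start 2: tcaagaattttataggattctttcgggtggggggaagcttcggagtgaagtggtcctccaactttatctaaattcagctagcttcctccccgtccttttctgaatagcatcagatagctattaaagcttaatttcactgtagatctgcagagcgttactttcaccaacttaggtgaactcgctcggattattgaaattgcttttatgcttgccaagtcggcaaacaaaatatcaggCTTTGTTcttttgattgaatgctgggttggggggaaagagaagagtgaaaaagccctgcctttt
Lef1, start 4: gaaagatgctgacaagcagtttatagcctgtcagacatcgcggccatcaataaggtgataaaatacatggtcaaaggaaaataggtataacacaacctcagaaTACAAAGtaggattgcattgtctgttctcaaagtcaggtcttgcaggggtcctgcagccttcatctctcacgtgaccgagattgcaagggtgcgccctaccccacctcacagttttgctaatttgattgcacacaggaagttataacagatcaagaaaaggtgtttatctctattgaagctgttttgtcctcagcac
Lef1, start 1: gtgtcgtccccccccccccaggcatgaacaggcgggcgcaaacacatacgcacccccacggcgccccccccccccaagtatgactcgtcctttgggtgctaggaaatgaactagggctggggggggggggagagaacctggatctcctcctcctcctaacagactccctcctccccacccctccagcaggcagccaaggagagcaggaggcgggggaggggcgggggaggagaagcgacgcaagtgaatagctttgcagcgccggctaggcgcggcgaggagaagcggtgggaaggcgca

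Prmt1 itself was lower in all 3 siPRMT1 arrays than in all 3 siSCR arrays of every state, at 38.6% of the control level in undifferentiated cells, 64.6% at day 4, 46.2% with DMSO and 36.7% with ATRA. Array medians ran from 7.47 to 7.67. The 6 siSCR arrays of DMSO and ATRA stood apart from the other 18: they correlated with them at 0.951 to 0.973 over genes, against 0.990 to 0.999 between replicates, and their SD over genes was 1.98 to 2.07, against 2.15 to 2.27. The knockdown differences with DMSO and with ATRA, and the siSCR vehicle difference, set those 6 arrays against others, so that line, treatment and whatever else separates the 6 arrays cannot be told apart there. The 10 pluripotency markers averaged 11.08 to 11.68 in every array, embryoid bodies included; in siPRMT1 against siSCR 5 were higher and 0 lower in undifferentiated cells, and 0 higher and 4 lower at day 4, Nanog among them (-0.25 ± 0.051). Day 4 endoderm markers averaged 10.09 to 10.22 in siPRMT1 arrays and 9.23 to 9.43 in siSCR arrays, and primed epiblast markers averaged 10.22 to 10.28 in siPRMT1 arrays and 9.55 to 9.65 in siSCR arrays. In bulk samples such as these, fewer cells of a type and less RNA per cell cannot be told apart.

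**Figure D1:**
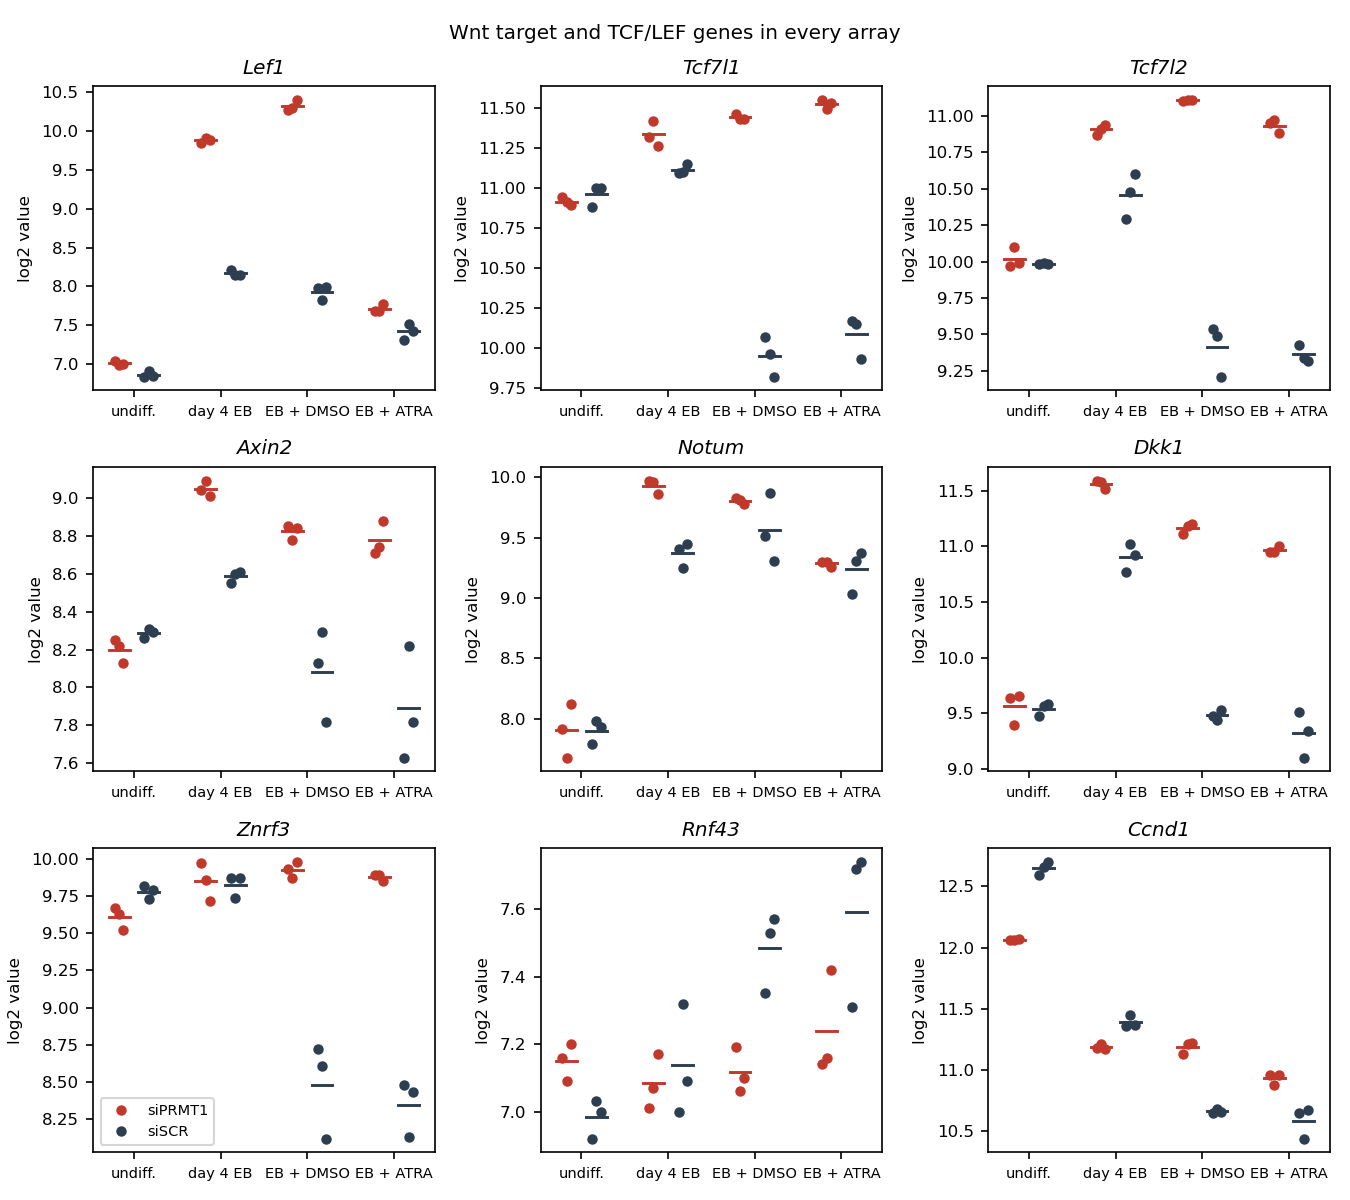
Each panel plots the log2 value of 1 gene in every array (points) and the group mean (line) in undifferentiated cells, day 4 embryoid bodies (EB), and embryoid bodies after DMSO or ATRA, with siPRMT1 in red left of siSCR in dark blue; each panel has its own scale. Lef1 lay between 9.85 and 10.40 in siPRMT1 embryoid bodies at day 4 and with DMSO, and between 7.68 and 7.77 in siPRMT1 embryoid bodies with ATRA.

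In undifferentiated cells, where the question was whether the knockdown alone changed these genes, only the cyclin gene Ccnd1, which drives cells out of G1, was called. Ccnd1 was 12.06, 12.06 and 12.07 in siPRMT1 cells, against 12.59, 12.66 and 12.70 in siSCR cells. All siPRMT1 arrays lay below all siSCR arrays, a difference of -0.59 ± 0.056 (SE, n = 3 each, limma adjusted p = 2.89e-07). This was 1 of the 9 genes lower and 0 higher, where 11.2% of all genes were called lower and 7.63% higher. The count lower was thus near that of all genes. At an unadjusted limma p under 0.05, 1 gene was higher, Lef1. The median difference over the 9 genes was 0.005, beside 0.006 over all genes.

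The other 8 genes had differences between -0.18 and 0.17 in undifferentiated cells. Lef1 was 7.04, 6.99 and 7.00 in siPRMT1 cells, against 6.84, 6.91 and 6.85 in siSCR cells. The arrays did not overlap, but the difference of 0.15 ± 0.059 had a limma adjusted p of 0.0978; it was called in 4 alternative fits (adjusted p 0.00532 to 0.0401). Fibroblast and feeder markers, 9 of 12 of which were lower in siPRMT1 undifferentiated cells, averaged 8.80 to 8.86 in siPRMT1 arrays and 9.28 to 9.34 in siSCR arrays; their part in the Ccnd1 difference was not tested. Of the calls over all genes 40.6% were higher in siPRMT1 cells as deposited, and 58.8% after centring each array on its median.

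At day 4, 6 of the 9 genes were higher and 1 was lower in siPRMT1 than in siSCR embryoid bodies, where 11.4% of all genes were called higher and 7.01% lower. Over all genes the number called between the lines was 3669 at day 4 and 3747 in undifferentiated cells. The median difference over the 9 genes was 0.45, beside -0.016 over all genes. The genes called higher were Lef1, Tcf7l2, Tcf7l1, Axin2, Notum and Dkk1, and the gene called lower was Ccnd1. Znrf3 and Rnf43, which encode the related pair of receptor-removing ubiquitin ligases, were not called, with differences of 0.02 ± 0.11 and -0.05 ± 0.10. Rnf43 had a low signal, and whether it was detected was not tested.

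Lef1 was 9.85, 9.91 and 9.88 in siPRMT1 embryoid bodies at day 4, against 8.21, 8.15 and 8.15 in siSCR embryoid bodies. Every siPRMT1 array lay above every siSCR array, a 3.28-fold difference (limma adjusted p = 1.68e-13), which made it the largest of the 9. The beta-catenin partner gene Tcf7l2 was 10.87, 10.91 and 10.94 in siPRMT1 embryoid bodies, against 10.29, 10.48 and 10.60 in siSCR embryoid bodies. The groups did not overlap, and the difference was 0.45 ± 0.077 (limma adjusted p = 2.49e-04). The repressor gene Tcf7l1 was 11.32, 11.42 and 11.26 in siPRMT1 embryoid bodies, against 11.09, 11.10 and 11.15 in siSCR embryoid bodies. Its difference was 0.23 ± 0.067 (limma adjusted p = 0.0221), and the call was lost when siSCR replicate 1 or 2 or siPRMT1 replicate 1 or 2 of day 4 was left out (adjusted p 0.0526 to 0.118), after quantile normalization (0.0775) and after scaling to one SD (0.177).

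Among the feedback genes, Dkk1 was 11.59, 11.58 and 11.52 in siPRMT1 embryoid bodies at day 4, against 10.77, 11.02 and 10.92 in siSCR embryoid bodies. Notum was 9.97, 9.96 and 9.86 in siPRMT1 embryoid bodies, against 9.41, 9.25 and 9.45 in siSCR embryoid bodies. Axin2 was 9.04, 9.09 and 9.01 in siPRMT1 embryoid bodies, against 8.55, 8.60 and 8.61 in siSCR embryoid bodies. In all 3 genes the groups did not overlap. The differences were 0.66 ± 0.086 for Dkk1, 0.56 ± 0.12 for Notum and 0.46 ± 0.11 for Axin2, with limma adjusted p of 1.16e-05, 0.00196 and 0.00498 in that order.

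Ccnd1 was again lower in siPRMT1 embryoid bodies, at 11.18, 11.21 and 11.17, against 11.36, 11.45 and 11.37 in siSCR embryoid bodies. The difference was -0.20 ± 0.056 (limma adjusted p = 0.0142), and the call was lost without siSCR replicate 2 of day 4 (adjusted p = 0.0802). The marker lists moved as well at day 4: 7 of 8 endoderm markers and 5 of 6 primed epiblast markers were higher in siPRMT1 embryoid bodies, and 6 of 12 fibroblast and feeder markers and 4 of 10 pluripotency markers were lower. Of the 7 measured markers of primitive streak and mesendoderm, 1 was higher, Mixl1 (0.39 ± 0.12). The part of these cell types in the differences of the Wnt genes was not tested. Of the calls over all genes 61.9% were higher in siPRMT1 embryoid bodies as deposited, 51.2% after quantile normalization and 50% after scaling arrays to one SD.

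**Figure D2:**
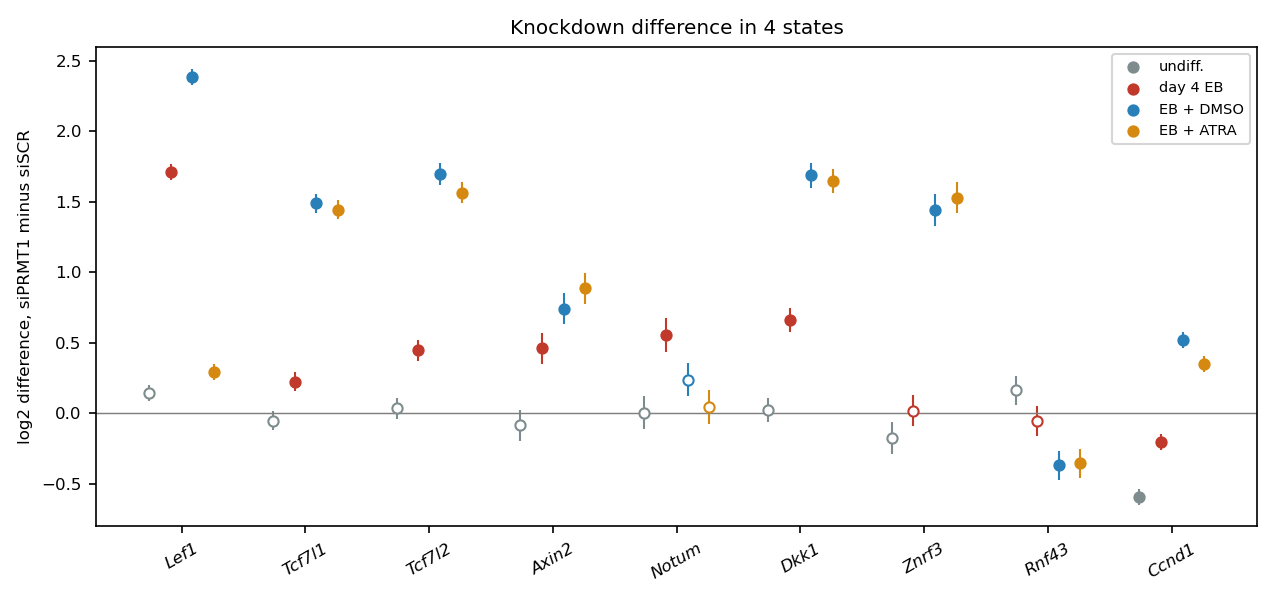
Points give the limma difference of siPRMT1 minus siSCR in log2 units for each gene in 4 states (grey undifferentiated, red day 4, blue DMSO, orange ATRA), with bars of 1 SE; filled points have an adjusted p under 0.05 and open points do not. Undifferentiated cells lie near 0 for every gene but Ccnd1, and Lef1 is at 1.71 at day 4 and 0.29 with ATRA.

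Embryoid body formation was then compared between the lines. In siPRMT1 cells 6 of the 9 genes rose by day 4 and 1 fell, where 23% of all genes rose and 18.4% fell. In siSCR cells 5 rose and 1 fell, where 14.5% of all genes rose and 13.7% fell. Lef1 rose 7.31-fold in siPRMT1 cells and 2.47-fold in siSCR cells, Notum 4.06-fold and 2.77-fold, and Dkk1 4.02-fold and 2.58-fold in the same order of lines. Ccnd1 fell in both, by 0.87 ± 0.056 in siPRMT1 cells and by 1.26 ± 0.056 in siSCR cells. Both comparisons use arrays that also enter the knockdown differences, so these values are not independent of those above. Of the calls over all genes in siSCR cells 51.3% were higher at day 4 as deposited and 66.1% after median centring.

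The difference between the lines in this change was tested directly. It was called for 7 of the 9 genes, all in the direction of a greater rise or a smaller fall in siPRMT1 cells, where 15% of all genes were called in that direction and 8.83% in the other. The extra change in siPRMT1 cells was 1.57 ± 0.083 for Lef1 (limma adjusted p = 1.18e-10), 0.64 ± 0.12 for Dkk1 (5.37e-04), 0.39 ± 0.079 for Ccnd1 (0.00103) and 0.41 ± 0.11 for Tcf7l2 (0.00774). It was 0.55 ± 0.16 for Axin2 (0.0137), 0.55 ± 0.17 for Notum (0.0197) and 0.28 ± 0.095 for Tcf7l1 (0.0386). The median over the 9 genes was 0.41, beside -0.019 over all genes. After centring and scaling arrays to one SD 2 genes remained called, Lef1 and Dkk1. After quantile normalization Axin2 (adjusted p = 0.112) and Tcf7l1 (0.108) were not called, which left 5 genes, and after centring Tcf7l1 (0.107) was not, which left 6. Tcf7l1 lost its call when any 1 of 8 of the 12 arrays compared was left out (adjusted p 0.0608 to 0.111). Notum lost it without siSCR replicate 2 of day 4 (0.0577) or siPRMT1 replicate 2 of undifferentiated cells (0.0681). The share of all calls in the higher direction was 63% as deposited, 52.1% after quantile normalization, 48.6% after centring and 41.6% after scaling to one SD.

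The call of Axin2 in siSCR cells was the weakest of these. It rose to 8.55, 8.60 and 8.61 at day 4, against 8.26, 8.31 and 8.29 in undifferentiated cells, a difference of 0.30 ± 0.11 (limma adjusted p = 0.047). The call was lost when any 1 of 18 arrays was left out, all 6 compared arrays among them (adjusted p 0.0516 to 0.115), and after quantile normalization (0.0916). Over all 34 alternatives the limma adjusted p ran from 1.52e-04 to 0.115. The 6 compared arrays did not overlap, and the SE pools the spread of all 8 groups. The SD of Axin2 was 0.026 and 0.032 in the compared siSCR groups, against 0.236 with DMSO and 0.299 with ATRA in siSCR. In siPRMT1 cells Axin2 rose to 9.04, 9.09 and 9.01 at day 4, against 8.25, 8.22 and 8.13 in undifferentiated cells, and no array overlapped (0.85 ± 0.11, limma adjusted p = 2.77e-06). Fibroblast and feeder markers fell with embryoid body formation in both lines, 11 of 12 in siPRMT1 and 10 of 12 in siSCR cells; their part in these changes was not tested.

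ATRA was compared with DMSO within each line. In siPRMT1 embryoid bodies 3 of the 9 genes fell and 0 rose, where 5.94% of all genes were called lower and 6.05% higher. They were Lef1, Notum and Ccnd1. In siSCR embryoid bodies 1 fell, Lef1, and 0 rose, where 12.2% of all genes were called lower and 11.2% higher. The siSCR count that fell was thus near that of all genes. At an unadjusted limma p under 0.05 the count higher was also 0 in both lines, and the counts lower were 5 in siPRMT1 and 2 in siSCR embryoid bodies. The median difference over the 9 genes was -0.18 in siPRMT1 and -0.14 in siSCR embryoid bodies, beside 0.025 and 0.028 over all genes.

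Lef1 was 7.68, 7.69 and 7.77 in siPRMT1 embryoid bodies with ATRA, against 10.27, 10.29 and 10.40 with DMSO. This was a 6.08-fold lower level (-2.60 ± 0.059, limma adjusted p = 4.51e-17), and it followed a 7.31-fold rise of Lef1 by day 4 in the same line. In siSCR embryoid bodies Lef1 was 7.31, 7.52 and 7.43 with ATRA, against 7.98, 7.83 and 7.99 with DMSO. The siSCR difference was -0.51 ± 0.059 (limma adjusted p = 2.71e-06), and in neither line did the arrays overlap. The difference between the lines in the ATRA response of Lef1 was -2.09 ± 0.083 (limma adjusted p = 2.89e-12). Lef1 was the 1 gene of the 9 called in this comparison, in the lower direction, where 1.32% of all genes were called lower and 1.92% higher. The siPRMT1 side of that comparison lies wholly outside the 6 arrays that stood apart, and the siSCR side wholly within them.

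Notum was 9.30, 9.30 and 9.26 in siPRMT1 embryoid bodies with ATRA, against 9.83, 9.81 and 9.78 with DMSO, and the groups did not overlap (-0.52 ± 0.12, limma adjusted p = 0.00436). In siSCR embryoid bodies Notum was 9.03, 9.31 and 9.37 with ATRA, against 9.51, 9.87 and 9.31 with DMSO. Those groups overlapped, and the difference of -0.33 ± 0.12 had a limma adjusted p of 0.0503, which was 0.0109 to 0.0392 when siSCR DMSO replicate 3, siSCR ATRA replicate 3 or 1 of 2 undifferentiated siPRMT1 arrays was left out. The difference between the lines for Notum was -0.19 ± 0.17 (adjusted p = 0.606), so a call in 1 line alone does not show that they differ.

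Ccnd1 was 10.96, 10.88 and 10.96 in siPRMT1 embryoid bodies with ATRA, against 11.13, 11.21 and 11.22 with DMSO (-0.25 ± 0.056, limma adjusted p = 0.00349). In siSCR embryoid bodies it was 10.65, 10.44 and 10.67 with ATRA, against 10.65, 10.68 and 10.66 with DMSO, which overlapped. The difference between the lines for Ccnd1 was -0.17 ± 0.079 (limma adjusted p = 0.264) and was not called. Without the lowest siSCR array, siSCR ATRA replicate 2, it was called at -0.25 (adjusted p = 0.0489), the 1 alternative of 33 that changed the call. Of the remaining genes in siPRMT1 embryoid bodies, Tcf7l1, Tcf7l2, Axin2, Dkk1, Znrf3 and Rnf43 had ATRA differences between -0.20 and 0.12 and were not called. Tcf7l2 and Dkk1 were called in siPRMT1 embryoid bodies when only the compared groups were fitted (adjusted p = 0.038 and 0.0292). Of the calls over all genes 50.5% were higher with ATRA in siPRMT1 embryoid bodies and 47.8% in siSCR embryoid bodies as deposited, against 35.1% and 27.4% after median centring. Primed epiblast markers also fell with ATRA, 5 of 6 in siPRMT1 and 2 of 6 in siSCR embryoid bodies; the part of that cell state was not tested.

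**Figure D3:**
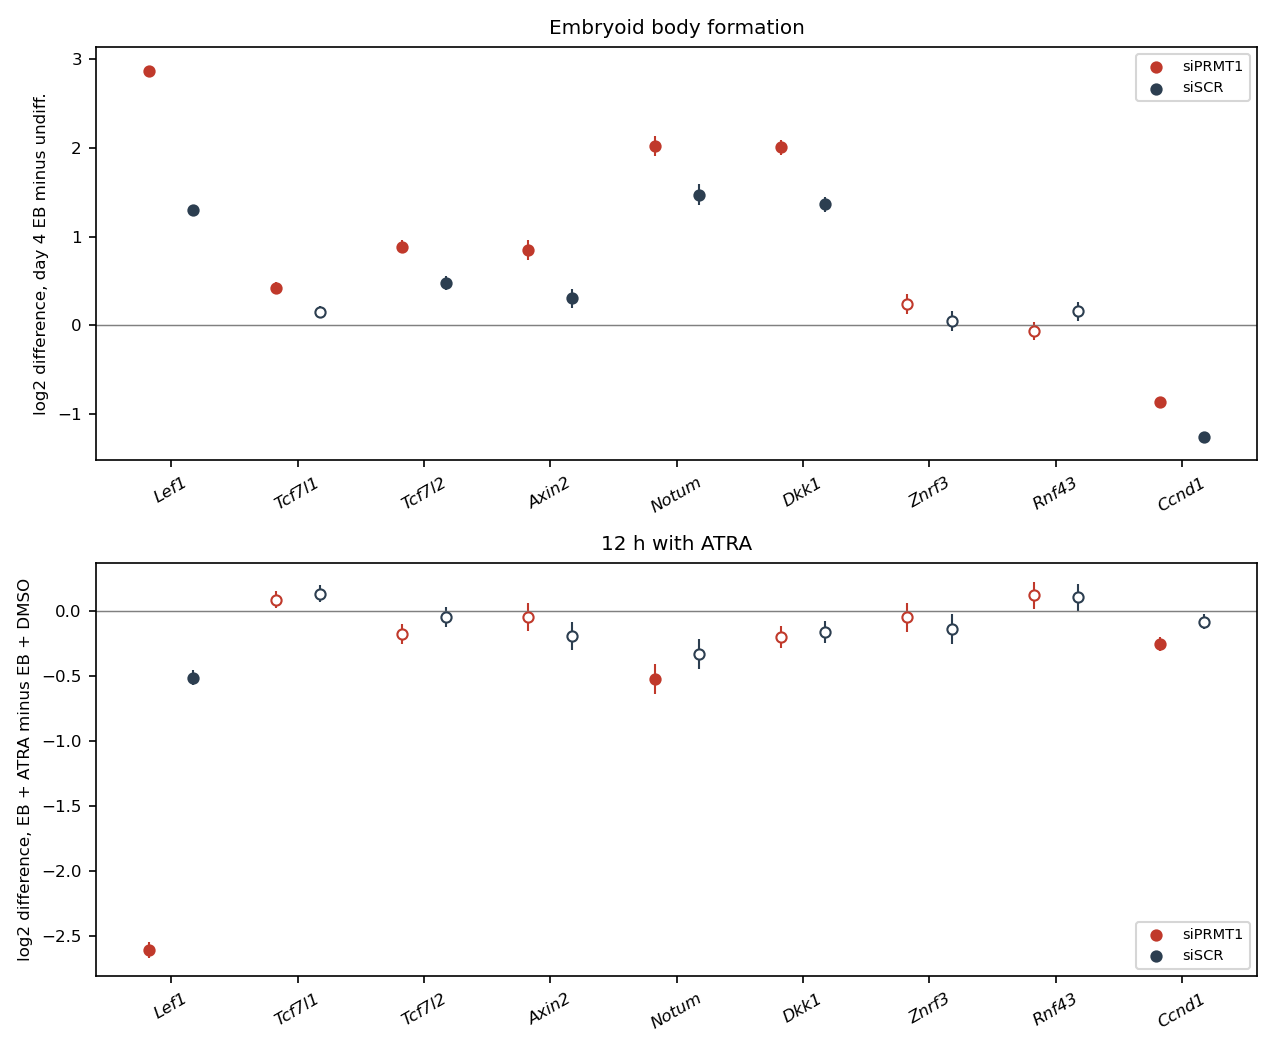
The upper panel plots the change on embryoid body formation (day 4 minus undifferentiated, log2) and the lower panel the change with 12 h of ATRA (ATRA minus DMSO, log2), with siPRMT1 in red left of siSCR in dark blue; bars are 1 SE, and filled points have an adjusted p under 0.05. Lef1 is the highest point above, at 2.87 in siPRMT1, and the lowest below, at -2.60 in siPRMT1.

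In siPRMT1 embryoid bodies the vehicle comparison called 2 of the 9 genes. The labels do not give the exact age of the treated embryoid bodies, so vehicle and any added time in culture cannot be told apart. With DMSO against untreated embryoid bodies, Lef1 was higher by 0.44 ± 0.059 (limma adjusted p = 6.92e-04) and Dkk1 lower by 0.40 ± 0.086 (adjusted p = 0.04), so that 1 gene was higher and 1 lower, where 0.306% and 0.155% of all genes were. The Dkk1 call was lost when any 1 of 11 arrays was left out (adjusted p 0.0547 to 0.211), all 6 compared arrays among them. In siSCR embryoid bodies the same comparison, which crosses into the 6 arrays that stood apart, called 7 of the 9 genes lower and 1 higher, where 30.3% of all genes were lower and 30.8% higher. Of the calls over all genes 66.3% were higher with DMSO in siPRMT1 embryoid bodies as deposited and 89.3% after scaling to one SD, and in siSCR embryoid bodies 50.4% as deposited and 63.2% after scaling.

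The knockdown differences with DMSO and with ATRA cross the same line between arrays. With DMSO 7 of the 9 genes were higher and 1 lower in siPRMT1 embryoid bodies, where 31.3% and 34.6% of all genes were; with ATRA the counts were again 7 and 1, where 32.2% and 38% of all genes were. Znrf3 was 9.93, 9.87 and 9.98 in siPRMT1 embryoid bodies with DMSO, against 8.72, 8.61 and 8.12 in siSCR embryoid bodies, a 2.71-fold difference. Tcf7l1 was 11.46, 11.43 and 11.43 in siPRMT1 embryoid bodies with DMSO, against 10.07, 9.96 and 9.82 in siSCR embryoid bodies, a 2.81-fold difference. DMSO against untreated gave 0.08 ± 0.11 for Znrf3 and 0.10 ± 0.067 for Tcf7l1 in siPRMT1 embryoid bodies, neither called, and -1.34 ± 0.11 for Znrf3 and -1.16 ± 0.067 for Tcf7l1 in siSCR embryoid bodies, both called.

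Ccnd1, lower in siPRMT1 cells before treatment, was higher in siPRMT1 than in siSCR embryoid bodies with DMSO. It was 11.13, 11.21 and 11.22, against 10.65, 10.68 and 10.66 (0.52 ± 0.056, limma adjusted p = 6.88e-08). Over the alternatives this difference ran from 0.177 to 0.549. DMSO against untreated gave -0.001 ± 0.056 for Ccnd1 in siPRMT1 embryoid bodies, not called. In siSCR embryoid bodies, where the comparison crosses into the 6 arrays that stood apart, it gave -0.725 ± 0.056, called. With ATRA the Ccnd1 difference was 0.35 ± 0.056 (adjusted p = 1.54e-05), and it was 0.07 after quantile normalization (adjusted p = 0.301) and -0.010 after scaling to one SD (0.908). Rnf43 was the 1 gene of the 9 lower in siPRMT1 embryoid bodies, by 0.37 ± 0.10 with DMSO and by 0.35 ± 0.10 with ATRA. With ATRA its arrays overlapped, and the call was lost when only the compared groups were fitted (adjusted p = 0.0566). Of the calls over all genes with DMSO 47.5% were higher in siPRMT1 embryoid bodies as deposited and 36.9% after scaling to one SD.

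Lef1 had its highest level with DMSO in siPRMT1 and its lowest in undifferentiated siSCR cells, and the 8 group ranges did not overlap anywhere in that order. From the top, the order was siPRMT1 DMSO, siPRMT1 day 4, siSCR day 4, siSCR DMSO, siPRMT1 ATRA, siSCR ATRA, siPRMT1 undifferentiated and siSCR undifferentiated. Other genes had neighbours that overlapped: for Dkk1, siPRMT1 ATRA overlapped siSCR day 4, and the 4 lowest groups, those of undifferentiated cells and of treated siSCR embryoid bodies, overlapped one another in sequence. For Axin2 the siSCR arrays were the most scattered with DMSO, between 7.82 and 8.29, and with ATRA, between 7.63 and 8.22. Rnf43 had the narrowest range of group means, 0.61, with every neighbouring pair overlapping. Its signal was low, averaging 7.22 over the 24 arrays, beside a median of 8.12 over the means of all genes. Whether Rnf43 was detected was not tested.

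Across the 8 group means, the gene most like Lef1 was Vrtn (r = 0.998), followed by Grhl2 (0.995) and Car14 (0.987), among 3966 genes whose group means ranged over 1 log2 unit or more. For Dkk1 these were Slc35c1 (r = 0.989), Inhbc (0.988) and Pgap1 (0.983), and for Notum Pfkfb2 (0.992), Myo6 (0.992) and Dram1 (0.990). The genes most like Znrf3 were Hcfc1, Scaf4 and Trim33, all at 0.999, where most of the range lies between the 6 arrays that stood apart and the rest. For Ccnd1 they were Map2 (0.994), Tnc (0.992) and Axl (0.992). Among the 9 genes themselves, Notum and Dkk1 had r = 0.633 over 8 group means and 0.992 over the 6 without treated siSCR embryoid bodies, and Axin2 and Dkk1 had 0.969 and 0.971. Over the 6 groups these pairs had the highest r of 36. Over the 8 groups Axin2 and Dkk1 still did, while many pairs exceeded Notum and Dkk1, such as Tcf7l2 and Axin2 (0.958). Over the 6 groups the 21 pairs without Ccnd1 or Rnf43 ran from 0.656 to 0.992, those of Ccnd1 from -0.907 to -0.641, and those of Rnf43 with the other 7 from 0.034 to 0.516. Over all 8 groups the same 3 sets ran from -0.095 to 0.969, from -0.805 to 0.542 and from -0.923 to 0.290. All are descriptions over groups that share arrays, lines and states, and no p is given.

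The rest of the pathway was described by 112 further genes in 8 roles, of which 109 were measured. In undifferentiated cells 8 of the 109 were higher (7.34%) and 17 lower (15.6%) in siPRMT1, where 7.63% and 11.2% of all genes were. At day 4, 17 were higher (15.6%) and 8 lower (7.34%) in siPRMT1 embryoid bodies, where 11.4% and 7.01% of all genes were, so the counts lower at day 4 and higher in undifferentiated cells were near those of all genes. Ligand genes were called in 0 of 19 cases at day 4 by limma, with 2 higher and 1 lower at an unadjusted p under 0.05. Secreted antagonists had 3 higher and 1 lower of 14, the receptors and co-receptors 3 and 1 of 18, nuclear cofactors 3 and 1 of 15, and further target genes 6 and 3 of 16. The destruction complex and relay had 1 higher and 1 lower of 18, the R-spondins and their receptors 1 and 0 of 7, and ligand secretion 0 and 1 of 2.

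Among the antagonists at day 4, Cer1, which binds Wnt, Nodal and BMP proteins in frog embryos, had a difference of 1.88 ± 0.18 and Sfrp5, a secreted Frizzled-related protein gene, of 0.96 ± 0.12 (limma adjusted p = 3.44e-07 and 7.54e-06). Sfrp1, another Frizzled-related gene, went the other way, at -0.298 ± 0.0515 (limma adjusted p = 2.82e-04). Cer1 averaged 8.70 in siPRMT1 and 6.82 in siSCR embryoid bodies. Of the further target genes Cdx4, a caudal homeobox gene, was higher by 0.76 ± 0.18 and Id2, an inhibitor of helix-loop-helix factors, by 0.58 ± 0.064. Cdx4 had a low signal, averaging 6.10 in siPRMT1 and 5.34 in siSCR embryoid bodies, beside a median of 8.12 over the means of all genes. Whether it was detected was not tested. The cell surface gene Cd44 and Sox9 were lower, with -0.30 ± 0.066 and -0.35 ± 0.082. Among receptors, Ror1 was higher by 0.47 ± 0.088 and Ror2 lower by 0.35 ± 0.066.

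In undifferentiated cells the lower genes included Wls, which carries Wnt proteins to the cell surface, at -0.88 ± 0.12 (limma adjusted p = 2.39e-05). The ligand gene Wnt5a was lower by 0.59 ± 0.11, Sox9 by 1.05 ± 0.082 and the cyclin gene Ccnd2 by 0.65 ± 0.057, in siPRMT1 cells. The co-receptor gene Lrp5 was higher, by 0.34 ± 0.057. Ror1, which was higher at day 4, was lower in undifferentiated siPRMT1 cells, by 0.50 ± 0.088. Fibroblast and feeder markers were lower in the same cells (9 of 12, median -0.35), and their part in these differences was not tested.

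With ATRA, 15 of the 109 genes rose (13.8%) and 12 fell (11%) in siPRMT1 embryoid bodies, where 6.05% and 5.94% of all genes did. In siSCR embryoid bodies 15 rose (13.8%) and 14 fell (12.8%), near the 11.2% and 12.2% of all genes. Porcn, the enzyme that adds the lipid that NOTUM removes, rose by 1.24 ± 0.073 in siPRMT1 and by 1.00 ± 0.073 in siSCR embryoid bodies. Wnt8a, a ligand gene of early embryos, rose by 1.03 ± 0.11 and 0.57 ± 0.11, and Cdx1, a homeobox gene that responds to retinoic acid, by 1.20 ± 0.10 and 0.99 ± 0.10, in the same order of lines. The Frizzled-related gene Sfrp4 fell by 1.07 ± 0.10 and 0.95 ± 0.10, and the corepressor gene Tle4 by 0.64 ± 0.083 and 0.77 ± 0.083. In 4 genes the response differed between the lines: Cer1 by -2.64 ± 0.26, Sfrp1 by 0.36 ± 0.073, Dvl3 by 0.34 ± 0.082 and Cd44 by 0.35 ± 0.093. Of the 109 genes 3 were thus higher (2.75%) and 1 lower (0.917%), near the 1.92% and 1.32% of all genes. The siSCR side of this comparison lies wholly within the 6 arrays that stood apart. That count of 4 was 7 without siPRMT1 ATRA replicate 3 or siSCR DMSO replicate 3, 2 without siPRMT1 ATRA replicate 2 or siPRMT1 DMSO replicate 2, 1 with only the compared groups fitted and 7 without the dimmest genes. Cer1 averaged 7.39 with ATRA and 10.03 with DMSO in siPRMT1 embryoid bodies, against 6.81 with ATRA and 6.82 with DMSO in siSCR embryoid bodies.

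**Figure D4:**
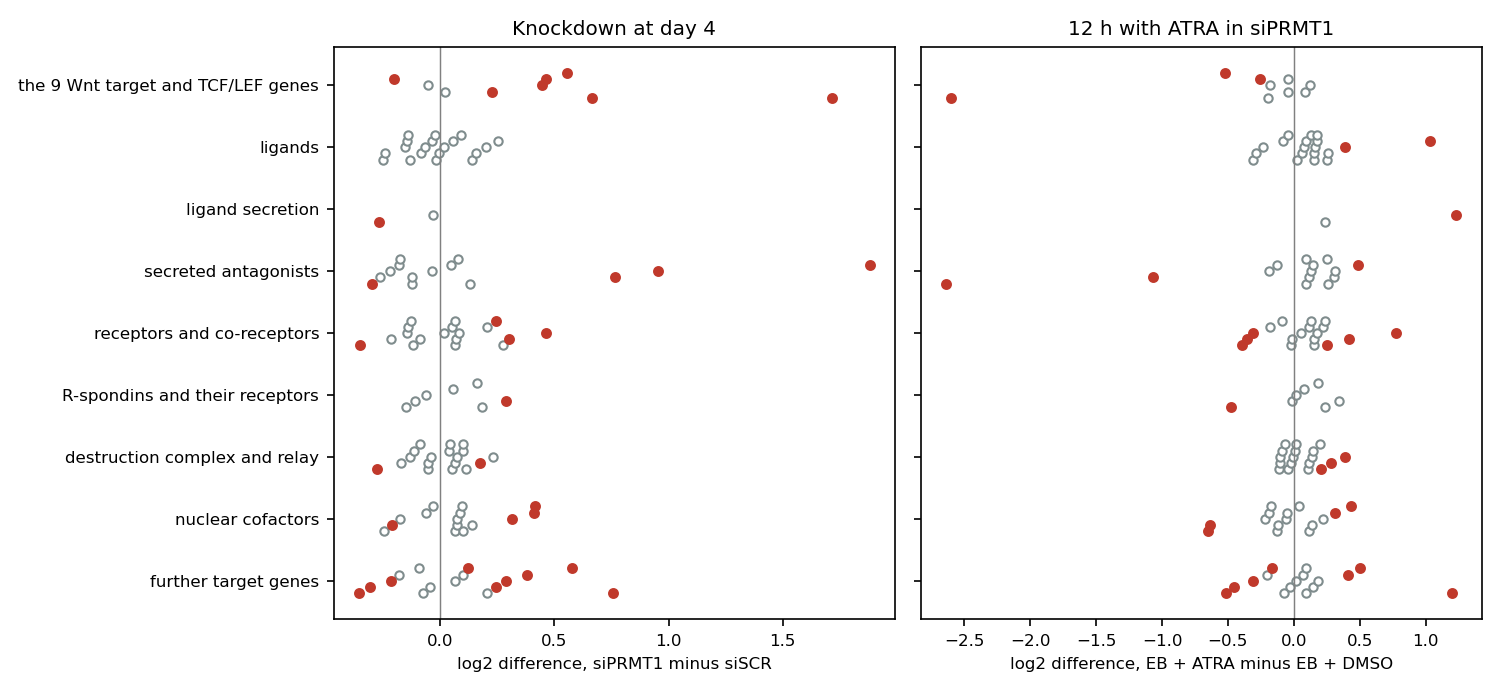
Each point is 1 gene of a role, placed by its log2 difference; the left panel shows siPRMT1 minus siSCR at day 4 and the right panel ATRA minus DMSO in siPRMT1 embryoid bodies, with red filled points called at an adjusted p under 0.05 and grey open points not called. The 9 genes described above form the top row, and Cer1 at 1.88 on the left and -2.64 on the right belongs to the secreted antagonists.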

How the data were processed

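The deposited table holds 35556 probe sets for 24 arrays of biotinylated cDNA, per the labels made from 300 ng total RNA. Its values are log2 units as deposited by the authors, the base being read from their range, 2.14 to 14.55; the sources used here do not say how probes were summarised and normalized. In the probe annotation 21789 sets had a single gene symbol, 1621 had several, and 12146 (34.2%) had none. Sets with 1 symbol were kept, the set with the highest mean per gene where there were several (999 genes), leaving 19938 genes. No detection calls were used, so signals near background were not set apart, and precision is limited by the number of arrays: the median SE of a difference of 3 against 3 arrays was 0.0932.

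In R 4.3.3, limma 3.58.1 (lmFit, contrasts.fit, eBayes) was fitted once to 8 group means over all 24 arrays, with 16 residual degrees of freedom, for 12 comparisons; p-values were adjusted by the Benjamini-Hochberg method over all genes of a comparison, and a gene was called at an adjusted p under 0.05. The fit was also run on simulated data with independent noise of the same SD in every array of a gene. Those data held no set of arrays standing apart, so the run says nothing about comparisons that use the 6 treated siSCR arrays. The genes described, their roles and the marker lists were chosen with earlier results of these data known, and no p is given over them. Named are the chosen genes and Prmt1, and per role at most the 2 largest called rises and falls of the undifferentiated, day 4 and ATRA comparisons; the likest genes are the 3 highest Pearson r over group means. P-values measure the spread between arrays of 1 line. The labels do not say whether equal replicate numbers go together, and the main fit used no block. Within-number correlations ran from -0.502 to 0.508, and in no comparison were all 3 over 0.1. With 3 arrays in each group these correlations cannot exclude a pairing. Alternatives were a replicate block, only the groups compared, quantile normalization, median centring, centring with scaling to one SD, removal of the dimmest 25% of genes, the mean of probe sets, a trend with robust variance, array weights, omission of the 6 treated siSCR arrays, and each array left out in turn. Promoter windows came from RefSeq on GRCm38.p6.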

Additional observations from a re-analysis of the deposited data

Results flagged for a closer look

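The changes below are noted because the 2 lines differed in them by a direct test of the difference, siPRMT1 minus siSCR (limma, adjusted over all genes). For embryoid body formation the extra change in siPRMT1 cells was 1.57 for Lef1, 0.64 for Dkk1, 0.55 for Notum, 0.55 for Axin2, 0.41 for Tcf7l2, 0.39 for Ccnd1 and 0.28 for Tcf7l1. For ATRA against DMSO the difference between the lines was -2.09 for Lef1, where the siSCR response was read within the 6 arrays that stood apart. No explanation was weighed.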

How the results depend on the processing

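Of 3627 alternative values of the 9 genes in 12 comparisons, 3526 stayed on their side of the threshold, and of these 42, called in neither fit, had the opposite sign (at most 0.153 in size). A further 58 lost a call, 41 gained one in the same direction, and 2 changed sign with a call in either fit. Those 2 were the siPRMT1 minus siSCR differences with ATRA of Notum, not called as deposited and -0.278 after quantile normalization (adjusted p = 0.0303), and of Ccnd1, called as deposited and -0.010 after centring and scaling to one SD (adjusted p = 0.908). Many alternatives cannot move a difference, such as omitting an array of a group not compared, or the mean of probe sets for genes with 1 set. The share that stayed is therefore high by construction and does not measure robustness. With the replicate block the counts called were 1, 7, 8 and 8 for the knockdown in the 4 states, 7 and 6 for embryoid body formation in siPRMT1 and siSCR and 7 for their difference, 3 and 1 for ATRA and 1 for its difference, and 2 and 8 for vehicle, equal to the counts without it.

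Counts called moved as follows, and the cause was not tested. The undifferentiated knockdown count, 1, was 2 without the 6 treated siSCR arrays, after centring, after centring and scaling, and with array weights. The count for the difference in embryoid body formation, 7, was 5 after quantile normalization, 6 after centring and 2 after centring and scaling. The siPRMT1 ATRA count, 3, was 5 with only the groups compared and 6 with array weights. The siSCR ATRA count, 1, was 2 after quantile normalization, 3 after centring, 2 after centring and scaling, 2 without the dimmest genes and 2 with a trend. The siPRMT1 vehicle count, 2, was 1 after centring and scaling and 4 with array weights. Leaving out 1 array gave 1 to 4 for siSCR ATRA, 1 to 2 for the difference in ATRA response, 1 to 2 for siPRMT1 vehicle, 5 to 7 for the day 4 knockdown, 5 to 7 for the difference in embryoid body formation and 5 to 6 for siSCR embryoid body formation. Without the 6 arrays no value exists for comparisons that use them.

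The 3 arrays per group limit the precision; detection limits were not analysed here. With array weights the further pathway genes called were 43 in undifferentiated cells and 43 at day 4 (25 each unweighted), 62 for siPRMT1 ATRA (27), 17 for siSCR ATRA (29) and 23 for siPRMT1 vehicle (2). With only the groups compared siSCR ATRA had 9.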

Other observations

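In the comparisons that set the 6 treated siSCR arrays against others, a large share of all genes was called. With DMSO 51 (46.8%) of the 109 further pathway genes were higher and 26 (23.9%) lower in siPRMT1 against siSCR embryoid bodies, where 31.3% and 34.6% of all genes were. With ATRA 56 (51.4%) were higher and 25 (22.9%) lower, where 32.2% and 38% of all genes were. Of nuclear cofactors 11 were higher and 2 lower of 15 with DMSO, and of the destruction complex and relay genes 12 were higher and 3 lower of 18. Ligand genes were fewer, with 1 higher and 5 lower of 19 with DMSO. Line and array set cannot be told apart in these counts.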
